A study of Mus musculus with 12 samples.

Results

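Sterol synthesis and its control by SREBP were followed through 29 genes, chosen by symbol, in the read counts of mouse kidneys whose tubule cells were made to lose the clock factor BMAL1. All 29 were found, each under 1 gene ID, among the 38924 IDs of the count tables, and all 29 passed the filter on low counts. They comprise 18 enzymes that build cholesterol from acetyl units, the branch enzyme gene Ggps1, and 10 genes that sense, regulate, move or store sterols. The kidneys came from 4 groups of 3 libraries each. Wild-type (WT) mice and mice labelled as BMAL1 knockout (KO) were each sampled at zeitgeber time 4 (ZT4), in the light, and at ZT16, in the dark, under 12 h of light alternating with 12 h of darkness. The labels give the inducible knockout as Bmal1lox/lox/Pax8-rtTA/LC1 on a C57BL/6J background. In it, doxycycline at 2 mg/ml in the drinking water, given for 2 weeks from 8 weeks of age, activates Cre where the Pax8 promoter is active, mainly in tubule cells, so other kidney cells keep the gene. The alleles and the doxycycline treatment of the WT mice are not stated separately, since all 12 libraries carry the same protocol text. Whole kidneys were used, so fewer cells of a type and less RNA per cell cannot be told apart. Whether the libraries within a group stem from different mice is not in the labels, so the p-values reflect library-to-library spread only, which may be technical.

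Cells make cholesterol by joining acetyl-CoA into mevalonate, turning mevalonate into isoprene units, condensing these to squalene, and closing and trimming the ring. The transcription factors encoded by Srebf1 and Srebf2 (the SREBPs) switch these enzyme genes on. When membranes are rich in sterol, INSIG proteins hold the escort protein SCAP and its SREBP cargo in the endoplasmic reticulum, and when sterol is scarce SCAP carries SREBP to the Golgi, where proteases release the active factor. Insig1 is itself an SREBP target, which closes a feedback loop, and the liver X receptors (LXR) answer sterol excess by inducing efflux genes and Srebf1. In mouse liver the clock repressor REV-ERBα is known to influence this system through Insig2.

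Library depth, as gene counts, was between 25628887 and 38043491. Arntl, the gene of BMAL1, had 20.01, 15.3 and 13.8 CPM (counts scaled by TMM to a common depth) in WT ZT4 and 14.4 to 16.2 CPM in KO ZT4, groups that overlap. At ZT16 every KO library (12.3, 13.4 and 15.0 CPM) lay above every WT library (10.5, 8.63 and 11.0 CPM), and the gene did not pass the test below (0.43 ± 0.15 on the log2 scale, adjusted p = 0.151). These values sum all exons and all cell types, so they do not check the labels. Nr1d1 and Nr1d2, direct BMAL1 targets that encode the REV-ERB repressors, were lower in KO at ZT4, with log2 fold changes of -1.89 ± 0.15 (SE) and -1.997 ± 0.15, and at ZT16, with -0.97 ± 0.17 and -1.96 ± 0.15, each passing the test below. KO ZT16 replicate 2 stood apart from replicates 4 and 6 of its group, at 43 against -9.73 and -11.8 on the first principal component, and with 22.3% of its counts on mitochondrial genes against 14.1% and 14.0%. The WT libraries had 16.3% to 18.0% at ZT4 and 18.7% to 22.4% at ZT16, and the KO libraries 12.6% to 12.8% at ZT4. The share thus moved with genotype and time, and its part in the results below was not tested. Genes were tested by edgeR's quasi-likelihood test in 1 fit of all 12 libraries, 3 against 3, with Benjamini-Hochberg adjustment over 16150 genes. A gene is said to rise or fall only where adjusted p was under 0.05.

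Between the genotypes genes passed in both directions, more of them lower than higher in KO. Averaged over both times, 7 of the 29 passed in KO against WT, 2 higher and 5 lower, where 11.4% of all tested genes passed (6.04% higher, 5.31% lower). The higher genes were Idi1 and Soat1, and the lower ones Insig1, Sqle, Msmo1, Acat2 and Mvd. At ZT4 alone 2 members passed, 1 in each direction (3.29% of all genes did, 1.63% higher and 1.66% lower), and at ZT16 alone 3, 1 higher and 2 lower (4.03% of all genes did, 2.07% higher and 1.96% lower). Groups did not overlap for 11 of the 29 at ZT4 (5 higher, 6 lower), against 37.7% of all genes (3122 higher, 2969 lower). At ZT16 this held for 11 (2 higher, 9 lower), against 15.9% of all genes (1279 higher, 1284 lower). It held for 4 at both times in the same direction (2 higher, 2 lower), against 8.5%. The log2 fold change was below 0 for 18 of the 29 at ZT4 and 20 at ZT16, and for 8020 and 7557 of the 16150 genes. Over both times it was below 0 for 17 of the 29 and for 7848 of the 16150 genes. The median log2 fold change of the 29 over both times was -0.14, against 0.01 for all tested genes. These medians were -0.06 and -0.006 without KO ZT16 replicate 2. Without KO ZT16 replicate 2, 16 members passed over both times (42.4% of all genes did), 7 at ZT4 (15.3%) and 9 at ZT16 (31.2%). The 9 added over both times were Srebf2, Scap and Lss, higher in KO, and Nr1h3, Insig2, Ggps1, Stard4, Sc5d and Dhcr7, lower.

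**Figure D1:**
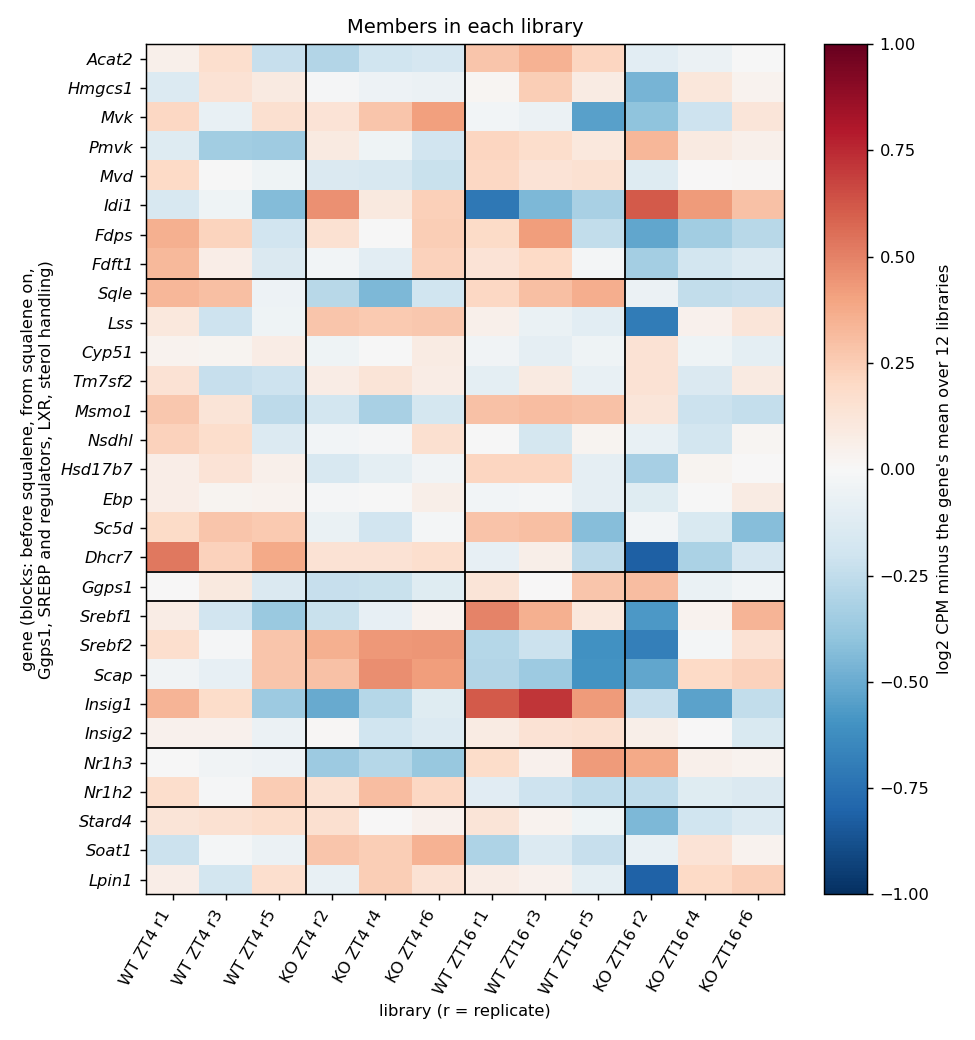
Log2 CPM of each of the 29 genes (rows, in blocks by role) in each of the 12 libraries (columns), as the difference from the gene's mean over all libraries, blue for lower and red for higher. At ZT16 Idi1 is blue in WT and red in KO and Insig1 the reverse, Ebp and Cyp51 are nearly white throughout, and KO ZT16 replicate 2 is the bluest of its group for Dhcr7, Lss, Srebf2, Scap and Lpin1.

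Levels per kilobase of exon differed widely between the genes. Hmgcs1, which makes HMG-CoA from acetoacetyl-CoA, was the highest of the 29 at 111 CPM per kb over the 12 libraries, followed by Cyp51, the lanosterol demethylase, at 61.3 CPM per kb. The lowest were Fdps, which makes farnesyl diphosphate, at 1.30 CPM per kb, and Lss, which closes the ring to lanosterol, at 1.83 CPM per kb. Length was the union of all annotated exons, 10787 bases for Lss and 4208 for Fdps, so the ranks depend on the annotation. By CPM alone, Lss (12.0 to 23.6) lay above Mvk (5.17 to 10.04) and Tm7sf2 (8.31 to 10.8). The tables set aside reads that align to several places. Of the 50-base words in the transcripts, 39.1% of those of Acat2 also occur in other annotated genes (most of all in Acat3), as do 26.5% of Fdft1, 26.2% of Fdps, 25.3% of Idi1 and 11.6% of Hmgcs1, so the levels of these genes are uncertain. Fdft1 also shares 18.3% of its exonic bases with Ctsb and Scap 13.2% with 5830462I19Rik, both on the opposite strand, and Tm7sf2 12.1% with Vps51 on its own strand.

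Of the 8 enzymes that lead to squalene, 1 rose and 2 fell over both times, where 11.4% of all genes passed (6.04% higher, 5.31% lower). Idi1 (ENSMUSG00000058258, chromosome 13, 8885501 to 8892451, plus strand, GRCm38) encodes the isomerase that interconverts the isoprene units isopentenyl and dimethylallyl diphosphate. It had 11.7, 12.8 and 9.71 CPM in WT ZT4 replicates 1, 3 and 5, and 18.1, 14.1 and 15.6 CPM in KO ZT4 replicates 2, 4 and 6. The ZT16 values, in the same order, were 7.97, 9.61 and 10.5 CPM for WT and 20.2, 17.7 and 16.2 CPM for KO. Every KO library lay above every WT library of its time. Its log2 fold change was 0.94 ± 0.14 (1.92-fold) at ZT16 (adjusted p = 0.00252), 0.71 ± 0.10 over both times (adjusted p = 0.000762), and 0.48 ± 0.14 at ZT4, where it did not pass (adjusted p = 0.0993). Without KO ZT16 replicate 2 the ZT16 value was 0.84 (adjusted p = 0.000961) and the ZT4 value passed (adjusted p = 0.0217).

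Acat2, the cytosolic thiolase at the entry of the pathway, and Mvd, which decarboxylates mevalonate diphosphate, fell in KO. Acat2 had 87.2, 94.9 and 71.7 CPM in WT ZT4 against 68.9, 73.5 and 74.9 CPM in KO ZT4, groups that overlap, and 102, 107 and 98.0 CPM in WT ZT16 against 78.6, 81.1 and 84.3 CPM in KO ZT16, groups that do not. Mvd had 61.4, 53.3 and 51.8 CPM in WT ZT4, 48.5, 47.8 and 45.9 CPM in KO ZT4, 61.7, 58.8 and 59.5 CPM in WT ZT16, and 48.9, 53.6 and 53.9 CPM in KO ZT16. The KO libraries lay below the WT libraries at both times for Mvd. Over both times the log2 fold change was -0.28 ± 0.07 for Acat2 (adjusted p = 0.0221) and -0.22 ± 0.06 for Mvd (adjusted p = 0.0318). The call of Acat2 was lost on leaving out replicate 1 or 3 of WT ZT4, or 2 or 4 of KO ZT4 (adjusted p 0.0514 to 0.0621). That of Mvd was lost without the filter (adjusted p = 0.0648), and when any library but WT ZT4 replicate 3 or 5, WT ZT16 replicate 3 or KO ZT16 replicate 2 was left out (adjusted p 0.051 to 0.088).

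The other 5 genes of this stretch did not pass between the genotypes. Hmgcs1 ranged from 366 to 598 CPM over the 12 libraries, lowest in KO ZT16 replicate 2, with a log2 fold change of -0.14 ± 0.10 over both times (adjusted p = 0.361). The kinase genes Mvk and Pmvk ranged from 5.17 to 10.04 and from 12.5 to 20.1 CPM, and Fdft1, squalene synthase, from 18.7 to 29.6 CPM. Fdps had 6.90, 6.28 and 4.69 CPM in WT ZT4, 5.97, 5.37 and 6.36 CPM in KO ZT4, 6.15, 7.17 and 4.51 CPM in WT ZT16 and 3.73, 4.20 and 4.41 CPM in KO ZT16. Its KO libraries at ZT16 all lay below the WT libraries, without passing (-0.54 ± 0.18, adjusted p = 0.157).

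**Figure D2:**
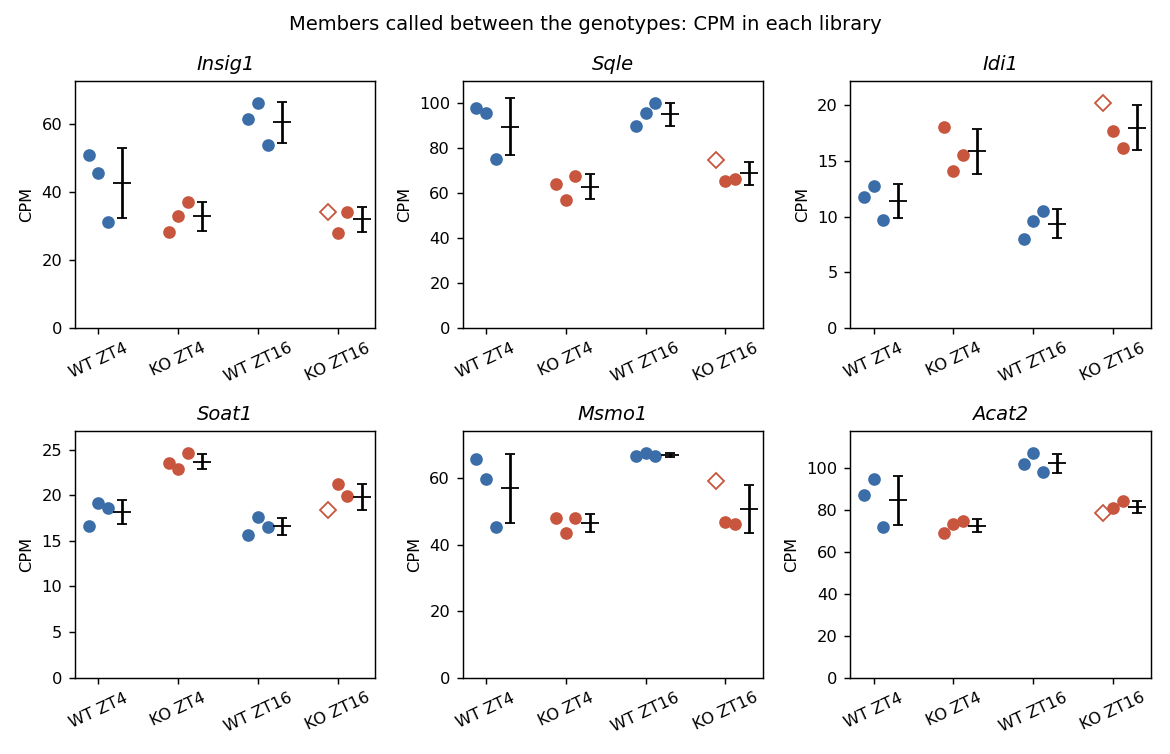
CPM of 6 genes called over both times, in each library (blue circles for WT, red for KO), with the mean and SD of each group of 3 in black and KO ZT16 replicate 2 as an open diamond. Idi1 and Soat1 sit higher in KO than in WT at both times and Sqle lower, and at ZT16 Insig1 lies at 27.8 to 34.2 CPM in KO and 53.9 to 66.1 CPM in WT.

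From squalene on, 2 of 10 enzymes fell over both times and none rose, where 5.31% of all genes fell and 6.04% rose. Sqle (ENSMUSG00000022351, chromosome 15, 59315077 to 59331192, plus strand) encodes squalene epoxidase, a rate-limiting enzyme of the later pathway. It had 97.6, 95.7 and 75.0 CPM in WT ZT4 and 63.9, 56.8 and 67.6 CPM in KO ZT4. The ZT16 values were 89.5, 95.4 and 99.7 CPM in WT and 74.6, 65.2 and 66.0 CPM in KO. No KO library reached the lowest WT library of its time. The log2 fold change was -0.51 ± 0.11 at ZT4 (adjusted p = 0.0267), -0.47 ± 0.11 at ZT16 (adjusted p = 0.0338) and -0.49 ± 0.08 over both (adjusted p = 0.00168). The call over both times held whichever library was left out. The ZT4 call was lost on leaving out replicate 1 or 3 of WT ZT4, or any of KO ZT4 (adjusted p 0.0609 to 0.138). The ZT16 call was lost without any WT ZT16 replicate, KO ZT16 replicate 4 or 6 or KO ZT4 replicate 2 or 6 (adjusted p 0.0502 to 0.134), and in a fit of the 6 ZT16 libraries alone (adjusted p = 0.106).

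Msmo1, which oxidises methyl groups of the ring, had 65.7, 59.6 and 45.3 CPM in WT ZT4, 47.9, 43.4 and 48.1 CPM in KO ZT4, 66.6, 67.5 and 66.7 CPM in WT ZT16, and 59.1, 46.9 and 46.1 CPM in KO ZT16. The genotypes overlapped at ZT4 through WT replicate 5 and did not at ZT16. Its log2 fold change was -0.35 ± 0.09 over both times (adjusted p = 0.0321), a call lost when any library but WT ZT4 replicate 5 or KO ZT16 replicate 2 was left out (adjusted p 0.058 to 0.0874). The 8 other enzymes did not pass between the genotypes. The isomerase gene Ebp ranged from 60.4 to 69.5 CPM in the 12 libraries and Cyp51 from 252 to 299.7 CPM. Nsdhl and Hsd17b7, which act in removing methyl groups, ranged from 74.1 to 98.6 and 26.4 to 38.7 CPM, and Sc5d, a desaturase, from 34.0 to 56.2 CPM. Tm7sf2, a ring reductase, and Lss ranged from 8.31 to 10.8 and 12.0 to 23.6 CPM. Lss at ZT4 was higher in KO without overlap (23.6, 23.4 and 23.6 against 20.9, 16.9 and 18.9 CPM) and did not pass (0.31 ± 0.17, adjusted p = 0.335, or 0.024 without KO ZT16 replicate 2). Of the 10 enzymes, Lss was the 1 higher without overlap at ZT4 and 4 were lower, against 37.7% of all genes (3122 higher, 2969 lower). Besides Sqle, the lower ones were Sc5d (39.9 to 45.0 in KO against 52.0 to 55.2 CPM in WT), Hsd17b7 (29.7 to 32.4 against 34.5 to 36.5) and Dhcr7 (19.2 to 19.5 against 20.4 to 25.1).

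Among the genes of the feedback loop, Insig1 fell while Insig2, Srebf1, Srebf2 and Scap did not pass. Insig1 (ENSMUSG00000045294, chromosome 5, 28071363 to 28078662, plus strand) had 50.9, 45.7 and 31.2 CPM in WT ZT4 and 28.3, 33.0 and 37.0 CPM in KO ZT4. The ZT16 values were 61.5, 66.1 and 53.9 CPM in WT and 34.2, 27.8 and 34.0 CPM in KO. The ZT4 groups overlap because WT replicate 5 lies among the KO libraries, and the ZT16 groups lie apart. The log2 fold change was -0.92 ± 0.17 (1.89-fold lower) at ZT16 (adjusted p = 0.00772), -0.65 ± 0.12 over both times (adjusted p = 0.004) and -0.38 ± 0.17 at ZT4 (adjusted p = 0.254). The calls at ZT16 and over both times held whichever library was left out.

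Insig2 encodes the other INSIG protein. It had 59.1, 59.0 and 54.8 CPM in WT ZT4, 57.7, 49.9 and 51.9 CPM in KO ZT4, 60.6, 63.1 and 63.8 CPM in WT ZT16, and 59.7, 57.2 and 51.5 CPM in KO ZT16. The genotypes overlapped at ZT4, and at ZT16 the highest KO library lay just below the lowest WT library. Its log2 fold change over both times was -0.14 ± 0.06 (adjusted p = 0.152), and -0.16 without KO ZT16 replicate 2 (adjusted p = 0.0261). Srebf1 had 53.5, 44.5 and 39.4 CPM in WT ZT4, 43.5, 48.1 and 52.0 CPM in KO ZT4, 71.6, 65.2 and 54.9 CPM in WT ZT16, and 34.2, 52.3 and 64.5 CPM in KO ZT16. Its spread was widest in KO ZT16, and the log2 fold change there was -0.34 ± 0.19 (adjusted p = 0.421), or -0.14 without replicate 2. The counts do not separate the isoforms of Srebf1.

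Srebf2 and Scap had similar profiles across the libraries. Srebf2 had 71.8, 63.5 and 77.3 CPM in WT ZT4, 81.7, 86.6 and 86.6 CPM in KO ZT4, 52.5, 55.2 and 42.0 CPM in WT ZT16, and 39.8, 63.2 and 70.7 CPM in KO ZT16. Scap had 50.03, 48.2 and 62.0 CPM in WT ZT4, 62.8, 70.8 and 68.4 CPM in KO ZT4, 41.9, 39.8 and 33.7 CPM in WT ZT16, and 35.6, 58.8 and 59.998 CPM in KO ZT16. For both genes every KO library at ZT4 lay above every WT library, and at ZT16 KO replicates 4 and 6 did but replicate 2 did not. The log2 fold change over both times was 0.24 ± 0.12 for Srebf2 (adjusted p = 0.229) and 0.38 ± 0.12 for Scap (adjusted p = 0.0687). Without KO ZT16 replicate 2 both passed, at 0.34 (adjusted p = 0.0028) and 0.47 (adjusted p = 0.000333). The libraries with the lowest values of either gene, KO ZT16 replicate 2 and WT ZT16 replicate 5, are also those with the largest mitochondrial shares, 22.3% and 22.4%, whose part was not tested.

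**Figure D3:**
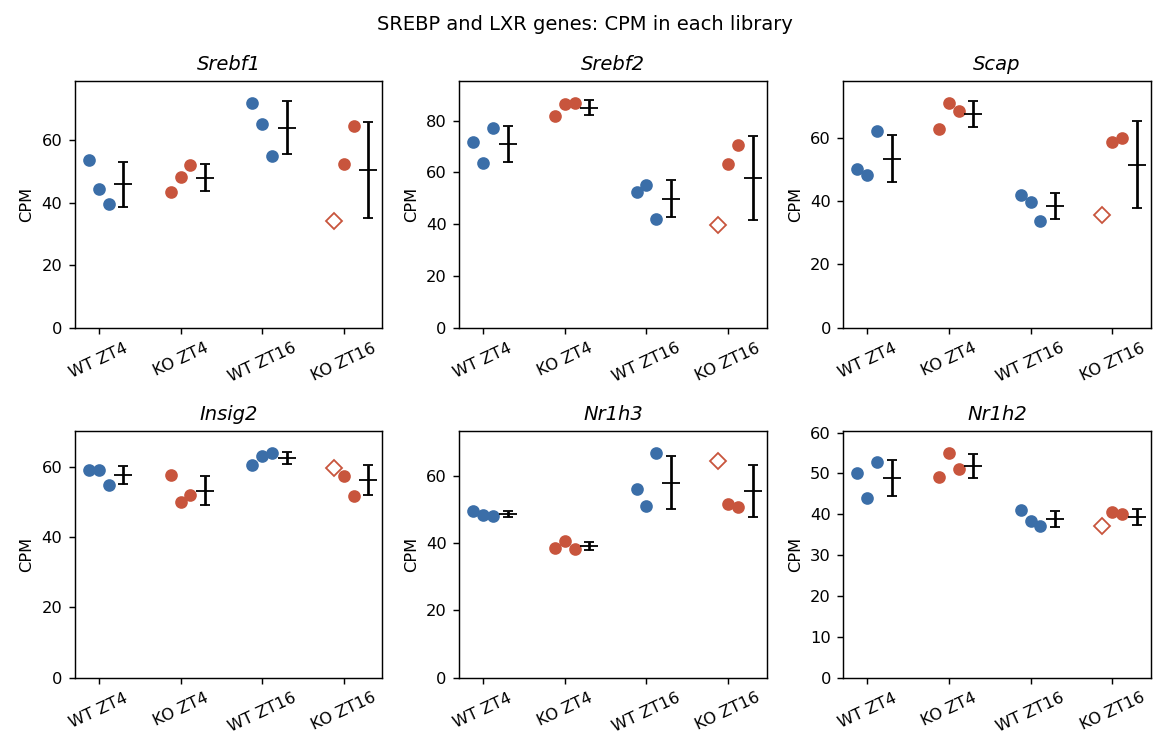
CPM of Srebf1, Srebf2, Scap, Insig2 and the LXR genes in each library (blue circles for WT, red for KO), with the mean and SD of each group of 3 in black and KO ZT16 replicate 2 as an open diamond. All ZT4 values of Srebf2 and Scap lie above the ZT16 values of the same genotype, and their KO ZT16 values span 39.8 to 70.7 and 35.6 to 59.998 CPM.

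The LXR genes did not pass between the genotypes. Nr1h3, which encodes LXRα, had 49.7, 48.6 and 48.1 CPM in WT ZT4 and 38.6, 40.8 and 38.3 CPM in KO ZT4, groups that do not overlap (-0.31 ± 0.11, adjusted p = 0.165, or 0.0264 without KO ZT16 replicate 2). The ZT16 values were 56.4, 51.2 and 66.9 CPM in WT and 64.6, 51.6 and 50.9 CPM in KO, groups that overlap. Nr1h2, which encodes LXRβ, had 50.1, 44.0 and 52.8 CPM in WT ZT4, 49.2, 55.0 and 51.1 CPM in KO ZT4, 41.0, 38.3 and 37.1 CPM in WT ZT16 and 37.1, 40.7 and 40.1 CPM in KO ZT16, and the genotypes overlap at both times.

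Of the genes that handle sterols, Soat1 rose. Soat1 (ENSMUSG00000026600, chromosome 1, 156424525 to 156474331, minus strand) encodes an enzyme that esterifies cholesterol for storage. It had 16.7, 19.1 and 18.6 CPM in WT ZT4, 23.5, 22.9 and 24.6 CPM in KO ZT4, 15.6, 17.6 and 16.5 CPM in WT ZT16, and 18.4, 21.3 and 19.9 CPM in KO ZT16. Every KO library was above every WT library of its time. The log2 fold change was 0.39 ± 0.09 at ZT4 (adjusted p = 0.0357), 0.26 ± 0.09 at ZT16 (adjusted p = 0.159) and 0.32 ± 0.06 over both (adjusted p = 0.00638). The call over both times held whichever library was left out, and the ZT4 call was lost without any 1 of the 6 ZT4 libraries (adjusted p 0.0777 to 0.156) and without the filter (0.0632). Stard4, which carries cholesterol between membranes, had 90.6, 92.1 and 93.9 CPM in WT ZT4, 92.7, 83.4 and 85.4 CPM in KO ZT4, 90.9, 85.0 and 80.7 CPM in WT ZT16 and 61.0, 72.3 and 75.7 CPM in KO ZT16. The ZT16 groups do not overlap, but the gene did not pass (-0.30 ± 0.09, adjusted p = 0.104, or 0.0372 without KO ZT16 replicate 2). Lpin1, a phosphatidate phosphatase that also restrains SREBP, was at 35.8 CPM in KO ZT16 replicate 2, its lowest value, and reached 74.4 CPM. Ggps1, which makes geranylgeranyl diphosphate for protein prenylation, ranged from 21.2 to 30.9 CPM.

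**Figure D4:**
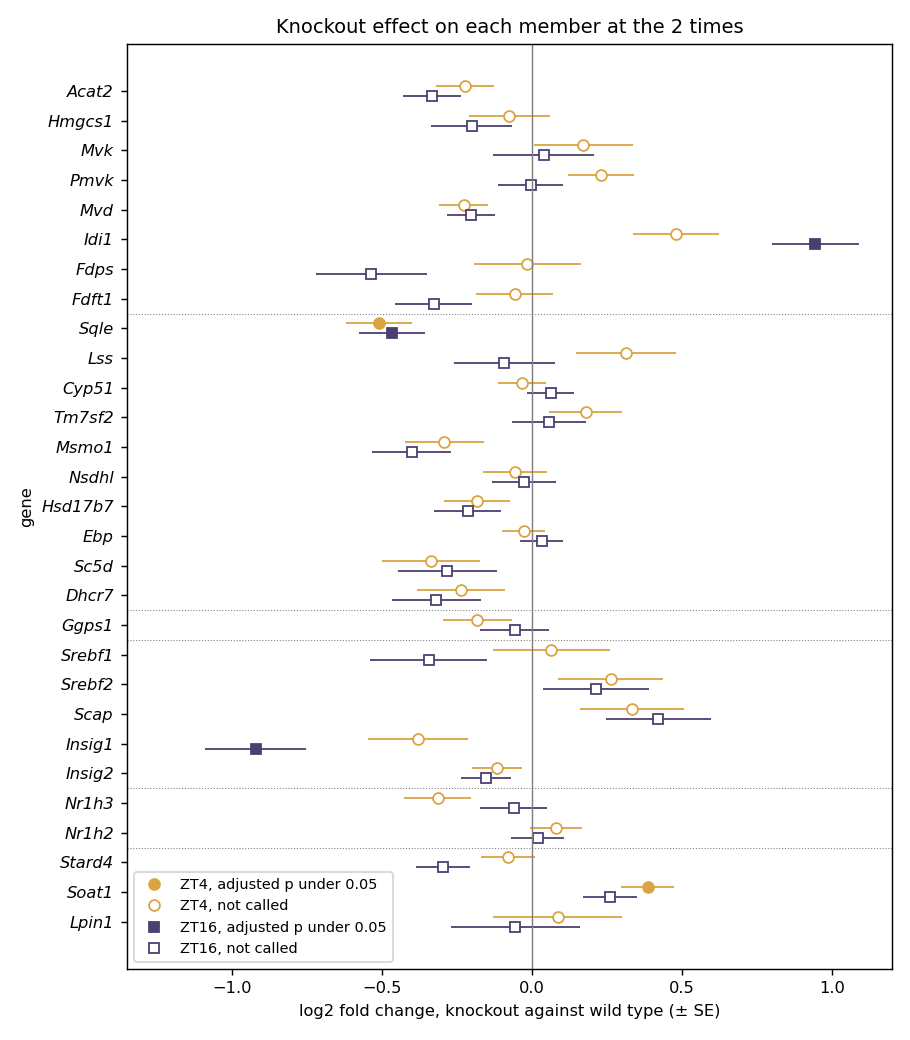
Log2 fold change of KO against WT with its SE for each of the 29 genes at ZT4 (circles) and ZT16 (squares), filled where adjusted p was under 0.05. Idi1 reaches 0.94 and Insig1 -0.92 at ZT16, Sqle is filled at both times and Soat1 at ZT4.

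Set side by side, the enzymes lay below 0 more often than the control genes. The log2 fold change was below 0 for 13 of the 18 enzymes at either time, and for 4 of the 10 genes of SREBP control and sterol handling at ZT4 and 6 at ZT16. Averaged over both times it was below 0 for 11 of the 18 enzymes and 5 of the 10 control genes, which are closer shares. Of the 16150 tested genes, 8020 were below 0 at ZT4, 7557 at ZT16 and 7848 over both times. Groups did not overlap for 7 enzymes at ZT4 (2 higher, 5 lower) and 7 at ZT16 (1 higher, 6 lower), and for 4 control genes at ZT4 (3 higher, 1 lower) and 4 at ZT16 (1 higher, 3 lower). Of all tested genes this held for 37.7% at ZT4 (3122 higher, 2969 lower) and 15.9% at ZT16 (1279 higher, 1284 lower). Over both times 5 of the 18 enzymes passed (1 higher, 4 lower, median log2 fold change -0.17), as did 2 of the 10 control genes (1 higher, 1 lower, median -0.06), where 11.4% of all genes did (6.04% higher, 5.31% lower). Without KO ZT16 replicate 2 the medians were -0.11 for the enzymes and 0.01 for the control genes. The difference between the lists was not tested. For each library, the median deviation of the enzymes from their means over all libraries was 0.17, 0.10 and -0.05 (log2) in WT ZT4, -0.02, -0.03 and 0.07 in KO ZT4, 0.09, 0.16 and -0.06 in WT ZT16, and -0.11, -0.10 and 0.01 in KO ZT16. The enzyme medians overlap between the genotypes at both times. Those of the 10 control genes were 0.07, -0.01 and 0.06 in WT ZT4, 0.08, 0.12 and 0.09 in KO ZT4, 0.08, 0.04 and -0.07 in WT ZT16, and -0.35, 0.02 and 0.04 in KO ZT16. At ZT4 the control gene medians of KO all lie above those of WT, by a small margin, and at ZT16 they overlap. KO ZT16 replicate 2 has the lowest median of either list.

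Between the times, 2 of the 29 passed in WT at ZT16 against ZT4, where 6.5% of all genes did (2.87% higher, 3.63% lower), and 4 in KO, where 10.5% did (5.27% higher, 5.2% lower). Groups did not overlap for 13 of the 29 in WT, against 42.6% of all genes, and for 14 in KO, against 43.3%. These comparisons share their libraries with those between the genotypes. Nr1h2 fell at ZT16 in WT (-0.34 ± 0.09, adjusted p = 0.0417) and in KO (-0.40 ± 0.09, adjusted p = 0.0208). Pmvk, phosphomevalonate kinase, had 14.6, 12.6 and 12.5 CPM in WT ZT4 and 18.5, 18.1 and 17.2 CPM in WT ZT16, and rose (0.44 ± 0.11, adjusted p = 0.0363). In KO it had 17.04, 15.5 and 14.0 CPM at ZT4 and 20.1, 17.01 and 16.6 CPM at ZT16, groups that overlap. In KO Nr1h3 rose (0.51 ± 0.11, adjusted p = 0.0217), and Stard4 (-0.32 ± 0.09, adjusted p = 0.0431) and Dhcr7 (-0.56 ± 0.15, adjusted p = 0.0383) fell.

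Dhcr7 encodes the last reductase of one branch to cholesterol. It had 25.1, 20.4 and 22.7 CPM in WT ZT4 and 16.5, 18.1 and 14.5 CPM in WT ZT16, and 19.3, 19.2 and 19.5 CPM in KO ZT4 and 9.85, 14.0 and 15.5 CPM in KO ZT16. ZT16 lay below ZT4 in each genotype without overlap, and the WT value did not pass (-0.48 ± 0.15, adjusted p = 0.0689). Srebf2 at ZT16 against ZT4 was at -0.51 ± 0.18 in WT (adjusted p = 0.0942) and -0.55 ± 0.18 in KO (adjusted p = 0.0588), and Scap at -0.47 ± 0.17 (adjusted p = 0.108) and -0.39 ± 0.17 (adjusted p = 0.13), with no overlap and no pass in either. Insig1 and Srebf1 in WT were at 0.51 ± 0.17 (adjusted p = 0.0822) and 0.48 ± 0.19 (adjusted p = 0.132), again without overlap. Without KO ZT16 replicate 2 the WT values of Dhcr7, Srebf2, Scap, Insig1 and Srebf1 passed (adjusted p 0.0028, 0.00258, 0.00412, 0.0187 and 0.00896), where 33.5% of all genes did.

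The calls of members between the times were each lost in some of the fits with a library left out. Where a call was lost, the log2 fold change was -0.37 to -0.28 for Nr1h2 and 0.40 to 0.48 for Pmvk in WT. In KO it was -0.41 to -0.35 for Nr1h2, 0.49 to 0.53 for Nr1h3, -0.56 to -0.55 for Dhcr7 and -0.35 to -0.24 for Stard4. These ranges leave out the fits that kept the call, and values there can lie outside them. In WT, Nr1h2 was at -0.40 without WT ZT4 replicate 3 and Pmvk at 0.53 without WT ZT4 replicate 1. In WT, Nr1h2 lost its call when any library but WT ZT4 replicate 3 or KO ZT16 replicate 2 or 6 was left out (adjusted p 0.0515 to 0.184), and Pmvk without WT ZT4 replicate 3 or 5, KO ZT4 replicate 4 or any WT ZT16 replicate (0.0591 to 0.156). In KO, Nr1h2 lost it without KO ZT4 replicate 4 or 6 (0.0708 to 0.0939), Nr1h3 without any KO ZT4 replicate (0.0715 to 0.0854), and Dhcr7 without any KO ZT4 replicate, WT ZT4 replicate 5 or WT ZT16 replicate 1 (0.0504 to 0.114). Stard4 lost it when any library but WT ZT16 replicate 5 or KO ZT16 replicate 4 or 6 was left out (0.0542 to 0.129). In a fit of the 6 KO libraries alone 0 of the 29 passed, and 36 of all genes did.

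Whether the knockout effect differed between the times was tested as an interaction. By edgeR 0 of the 29 passed, where 0.0186% of all genes did, and by DESeq2 0 passed (0.111% of all genes did), while 2 had an unadjusted p under 0.05 by edgeR, as did 540 of the 16150 genes. These were Insig1 (-0.54 ± 0.24 on the log2 scale, ZT16 effect minus ZT4 effect, unadjusted p = 0.0404) and Idi1 (0.46 ± 0.20, unadjusted p = 0.0408). A difference between the times in the knockout effect on either gene is therefore not shown, although each passed between the genotypes at ZT16 and not at ZT4.

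Promoter sequence was set beside these values, from the RefSeq table of GRCm38.p6, which holds 25 of the 29 genes (Fdps, Fdft1, Sqle and Stard4 are not in it). The window spans 250 bases before and 50 after each start site, and motifs were searched on both strands. The SREBP element TCACNCCAC was found in Hmgcs1 alone of the 25, and in 1.44% of the 27025 genes of the table (1.24% of its 32851 promoters, since some genes have several). The E-box CACGTG, which BMAL1 with CLOCK binds, was found in 5 (Dhcr7, Hsd17b7, Insig1, Sc5d and Scap), and in 8.09% of genes (7.15% of promoters). TAGGTCA, part of the element that REV-ERBs bind, was found in Dhcr7, and in 2.97% of genes (2.61% of promoters). CCAAT, the box of NF-Y, a factor that works beside SREBP, was found in 20 of the 25, and in 41.1% of genes (37.4% of promoters). The windows of Insig1, Idi1 and Hmgcs1 are shown because Insig1 fell and Idi1 rose, while Hmgcs1, with the SREBP element, did not pass. Those of Insig1 and Idi1 stop short of the transcript start annotated by GENCODE. Capitals mark the SREBP element, the E-box and CCAAT, which reads ATTGG on the other strand, and no marked motifs overlap.
Insig1, chr5:28071162-28071362, plus strand: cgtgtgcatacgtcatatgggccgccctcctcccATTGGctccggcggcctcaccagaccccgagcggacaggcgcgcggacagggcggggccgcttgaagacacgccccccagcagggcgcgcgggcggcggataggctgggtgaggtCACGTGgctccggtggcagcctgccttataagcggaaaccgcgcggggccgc
Idi1, chr13:8885356-8885500, plus strand: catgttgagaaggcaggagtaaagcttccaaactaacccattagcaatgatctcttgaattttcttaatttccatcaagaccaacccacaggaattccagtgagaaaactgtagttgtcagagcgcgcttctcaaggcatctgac
Hmgcs1, chr13:119690101-119690350, plus strand: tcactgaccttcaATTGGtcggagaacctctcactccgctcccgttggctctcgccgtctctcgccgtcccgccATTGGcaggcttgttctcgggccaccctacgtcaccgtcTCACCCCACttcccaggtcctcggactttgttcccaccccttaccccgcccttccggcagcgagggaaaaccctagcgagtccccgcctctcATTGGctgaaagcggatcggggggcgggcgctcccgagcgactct
The stretch of Insig1 holds 1 E-box, from position -101 to -96 from the RefSeq start site, and 1 CCAAT box. That of Hmgcs1 holds the SREBP element, from position -137 to -129, and 3 CCAAT boxes. That of Idi1 holds 0 of these motifs, and the 2 CCAAT boxes found for Idi1 lie after the printed bases.

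Other genes of the pathway were read from further lists. Of 15 genes of fatty acid synthesis under SREBP, 1 rose and 2 fell in KO over both times. Of all genes 11.4% passed (6.04% higher, 5.31% lower). The median log2 fold change of the 15 was -0.02, or -0.06 without KO ZT16 replicate 2. Scd1, the desaturase that makes oleic acid, had 354, 266 and 270.4 CPM in WT ZT4, 123, 209.6 and 173 CPM in KO ZT4, 400.0, 301 and 334 CPM in WT ZT16, and 179.8, 124 and 199 CPM in KO ZT16. KO lay below WT at both times without overlap, and the log2 fold change was -0.93 ± 0.15 over both (adjusted p = 0.00182). Mid1ip1, which activates acetyl-CoA carboxylase, was at -0.31 ± 0.07 (adjusted p = 0.0157), and both calls held whichever library was left out. Elovl6, a fatty acid elongase, was at 0.36 ± 0.10 (adjusted p = 0.0331), a call lost when any library but KO ZT4 replicate 4, WT ZT16 replicate 1 or KO ZT16 replicate 2 was left out (adjusted p 0.0501 to 0.0908).

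Of 9 LXR targets and sterol transport genes, 1 rose and 3 fell over both times. The share of all genes is the same 11.4% (6.04% higher, 5.31% lower). The median of the 9 was -0.10, or -0.03 without KO ZT16 replicate 2. Lpcat3, which remodels membrane phospholipids, had 175, 160.2 and 144 CPM in WT ZT4, 103, 107 and 116 CPM in KO ZT4, 163, 145 and 168 CPM in WT ZT16, and 133, 112 and 125 CPM in KO ZT16. The genotypes did not overlap at either time, and its log2 fold change of -0.46 ± 0.07 (adjusted p = 0.00132) held whichever library was left out. Mylip, an LXR-induced ubiquitin ligase (-0.34 ± 0.09, adjusted p = 0.0275), Npc2, the lysosomal sterol carrier (-0.21 ± 0.06, adjusted p = 0.0386), and Scarb1, the HDL receptor (0.42 ± 0.11, adjusted p = 0.0315), passed. Each lost its call in 8 or 9 of the 12 fits with a library left out (adjusted p 0.0536 to 0.0729, 0.0741 to 0.0998 and 0.058 to 0.0834), though not without KO ZT16 replicate 2. Of 7 SREBP processing genes and 8 genes that use isoprenoids, 0 passed between the genotypes by edgeR or DESeq2, and 1 of each list had an unadjusted p under 0.05 over both times, as did 4599 of the 16150 genes. Between the times 2 of the processing genes passed in WT, where 6.5% of all genes did, and 3 in KO, where 10.5% did. In WT and KO these counts were 0 and 1 for the 8 genes that use isoprenoids. They were 1 and 4 for the 9 LXR targets and sterol transport genes, and 3 and 2 for the 15 of fatty acid synthesis.

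Markers of other tissue were examined because fat and adrenal cortex are rich in lipid or sterol enzymes. Of the 8 adrenal markers 7 were below 1 CPM in all libraries, Cyp11b1 and Cyp11b2 at 0, and Fdx1, which other tissues also express, was at 38.5 to 54.9 CPM, lower in KO than in WT at ZT16 without overlap. The 5 adipocyte markers summed to 9.77 to 24.2 CPM in WT ZT4, 1.88 to 21.5 in KO ZT4, 9.64 to 15.1 in WT ZT16 and 5.29 to 43.8 in KO ZT16, the highest in KO ZT16 replicate 2. Their ranges overlap between all groups, and their part in the values of Scd1 was not tested. The 3 markers of the S3 proximal tubule summed to 1234 to 1401 CPM in WT ZT4, 819 to 928 in KO ZT4, 1467 to 1870 in WT ZT16 and 1050 to 1412 in KO ZT16. The sum was lower in KO at each time without overlap, and its part in the lower Sqle, Msmo1 and Acat2 was not tested. Slc7a13 carried that difference, at 622 to 697 CPM in KO against 1002 to 1199 in WT at ZT4 and 813 to 1217 against 1268 to 1658 at ZT16. The other markers, Slc5a1 and Slc22a7, overlapped between the genotypes at both times. All 5 markers of the earlier proximal tubule were above 1 CPM in all libraries, and their sums overlapped between the genotypes at both times. At ZT4 Slc5a2 was higher in KO without overlap (624 to 663 against 560 to 622 CPM). Lrp2 (2509 to 2771 against 2778.5 to 2889) and Slc4a4 (1131 to 1213 against 1236 to 1299) were lower without overlap. Slc5a12 and Slc34a1 overlapped at ZT4, and each of these markers did at ZT16. Their part was not tested. The 4 macrophage markers summed to 92.3 to 112 CPM in WT ZT4, 77.2 to 85.1 in KO ZT4, 87.5 to 95.9 in WT ZT16 and 69.9 to 80.4 in KO ZT16, lower in KO without overlap, and their part was not tested. Csf1r carried most of this difference. It had 58.0 to 64.6 CPM in KO against 72.4 to 79.8 in WT at ZT4, and 53.5 to 56.8 against 65.7 to 75.4 at ZT16. Adgre1 was lower in KO without overlap at ZT4 only, and Cd68 and C1qa overlapped at both times. At ZT4 the 2 markers of the thick ascending limb summed to 4331 to 4471 CPM in KO against 5262 to 5849 in WT. The 3 of endothelium summed to 223 to 239 against 254 to 284, and both sums were lower in KO without overlap. At ZT16 both sums overlapped. The limb markers went opposite ways at ZT4, where Umod was lower in KO (2847 to 3027 against 4085 to 4593 CPM). Slc12a1 was higher in KO without overlap at both times. It had 1412 to 1484 against 1177 to 1325 CPM at ZT4, and 1405 to 1441 against 1286 to 1331 at ZT16. Of the endothelial markers at ZT4, Pecam1 and Emcn were lower in KO without overlap and Kdr overlapped. The part of either list was not tested.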

How the data were processed

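Whole-kidney RNA was sequenced as 12 stranded mRNA libraries, per the labels' protocols. The authors deposited raw read counts per Ensembl gene. Per the submitters' processing notes, cutadapt 1.2.1, TopHat2 2.0.9, HTSeq 0.5.4p3, R 3.1.1, edgeR, limma and GRCm38 were used. For the counting, strand setting and annotation: not given in the sources used here. Of the sum over all lines of a library's counts, 3.50% to 5.96% were in the line for no feature and 30.8% to 43.0% in that for alignments to several places. These shares are of tallied lines and need not equal shares of reads, and these lines were left out. Symbols, coordinates and exon lengths came from GENCODE M21. edgeR 4.0.16 in R 4.3.3 (filterByExpr, TMM, 8 residual degrees of freedom) fitted all 12 libraries together, and 16150 genes were tested in 6 comparisons. The fit was tested on simulated data. The alternatives were DESeq2 1.42.0, RLE scaling, no filter, only the groups compared, a replicate block and each library left out. For the SREBP element the alternative was the longer motif. The members, gene lists and named genes were chosen with earlier results of these data known. Members passing any comparison and the feedback genes are given by library, other members by range, and from each further list up to 4 genes that passed a comparison may be named. Fdps and Lss by library, and Sc5d and Hsd17b7 by group at ZT4, were added after their values were seen. E-box, TAGGTCA and CCAAT searches were added after seeing the data. Other enzymes of the pathway are not analysed here.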

Additional observations from a re-analysis of the deposited data

How the results depend on the processing

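None of 69 results for single genes changed direction. Of 284 values under alternatives other than a left-out library, 231 kept their side of the threshold, 34 lost their call and 19 gained one. With each library left out these counts were 632, 177 and 19 of 828. Of the 18 calls of members, 6 held in all 12 such fits. At ZT4 the genes called between the genotypes (531) were 2877 with only the groups compared and 1061 by DESeq2, and the members (2) were 8 with only the groups compared and 1 without the filter. At ZT16 all genes (651) were 200 with only the groups compared and 1008 by DESeq2, and the members (3) were 5 by DESeq2. Between the times in WT all genes (1050) were 3557 with only the groups compared and 2149 by DESeq2, and the members (2) were 7 with only the groups compared, 4 by DESeq2 and 1 without the filter. In KO all genes (1691) were 36 with only the groups compared and 3705 by DESeq2, and the members (4) were 0 and 7. For the interaction all genes (3) were 18 by DESeq2. With the replicate number as a block, all genes called were 229 in WT, 189 in KO and 1 for the interaction, and members 0 in WT and 0 in KO. Same-numbered libraries correlated in their deviations from their group means at -0.266 to 0.0542, so pairing by number was not seen. With 3 libraries a group, these correlations cannot exclude it. The genotypes share no number. With each library left out, the counts for all genes and members ranged from 228 to 2503 and 0 to 7 at ZT4, 380 to 5099 and 2 to 9 at ZT16, 1120 to 6935 and 4 to 16 over both times, 220 to 5473 and 0 to 9 in WT, 181 to 3629 and 0 to 7 in KO, and 3 to 8 and 0 to 0 for the interaction. The highest counts came without KO ZT16 replicate 2, except in KO between the times, where they came without replicate 6. The cause of these changes was not tested. With 3 libraries a group, small changes can be missed.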
